A study of Homo sapiens with 6 samples.

Results

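Synaptic vesicle and synapse adhesion genes were examined in SH-SY5Y, an established human neuroblastoma cell line. The 37 genes were taken by name from a list that covers the release machinery, the proteins of the vesicle membrane, the recycling of vesicles and the neurexin and neuroligin adhesion molecules. The list and its roles were chosen with earlier results of these data known. Of the 37 genes, 35 have a row among the 28752 genes of the table, and NRXN3 and AMPH were not analysed here. After a filter on low counts 32 were tested, and NRXN2, CPLX2 and SV2B were not. Cells of 1 line were transfected with OE-circSHPRH or with OE-NC, and RNA was taken 72 h later, with 3 libraries per group. The labels spell out neither OE nor NC. OE-circSHPRH is read here as overexpression of the circular RNA made from SHPRH, and OE-NC as its negative control. Both groups went through transfection, and untransfected cells were not analysed here. The labels do not say that the libraries came from separate cultures, so p-values measure the spread between these libraries, which may be technical.

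A nerve terminal stores transmitter in small vesicles. SNARE proteins on the vesicle (VAMP1, VAMP2) and on the plasma membrane (STX1A, SNAP25) pull the membranes together, synaptotagmins sense calcium, complexins clamp and assist the SNAREs, and RIM, Munc13, bassoon and piccolo proteins hold vesicles at the release site. Neurexins on the axon bind neuroligins on the target cell. Sympathetic neuroblasts share much of this machinery with neurons, since they release catecholamines from vesicles. Many neuronal genes are held down in other cells by the repressor REST, which binds an element called RE1.

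No tested gene of the group passed the test between OE-circSHPRH and OE-NC. At an edgeR adjusted p under 0.05 (quasi-likelihood test, Benjamini-Hochberg over 16458 genes), 0 of 32 rose and 0 fell, where 0.188% of all genes tested were called, 0.128% up and 0.0608% down. DESeq2 also called 0 of them, but it gave many of them no adjusted p, BSN, UNC13A and RAB3B included, so it could not call those. By limma-voom 0 of the 32 were called. At an unadjusted p under 0.05 by edgeR, 3 were higher (RAB3B, SYT1 and SYT11) and 2 lower (BSN and UNC13A) in OE-circSHPRH, 15.6% of the 32 against 10.3% of all genes tested, of which 5.33% were higher and 5.02% lower. The same split of 3 and 2 was given by DESeq2 and by limma-voom. In CPM, counts scaled to a common library size with TMM factors, the groups did not overlap for 7 of the 32 (21.9%), 5 higher and 2 lower. Over all genes tested this share was 15.6%, with 7.99% higher and 7.57% lower. The 95% interval of the fold change over OE-NC lay inside 1.5-fold in either direction for 27 of 32 genes. Over all genes tested this held for 12085 of 16458. The other 5 of the 32 were UNC13A, CPLX1, RIMS1, RIMS2 and SYN1.

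The start regions of 4 of the 5 genes with an unadjusted p under 0.05 are shown to set the lower pair, BSN and UNC13A, beside SYT1 and RAB3B, and that of SYN1 is added because it holds both parts of the RE1 element that were searched. The window of SYT11, the remaining gene, is not printed because it holds no match to any of the 5 motifs used here, with 60.0% GC. Each is 300 bases from RefSeq (GRCh38.p14), from 250 before the start site to 50 after it, read along the gene's own strand. Capitals mark matches on either strand to the motifs. The GC box was searched as GGGCGG. The TATA box was searched as TATAAA. The core of the cyclic AMP response element was searched as TGACGT. The left part of RE1 was searched as CAGCACC and its right part was searched as GGACAG. None of these motifs is contained in another. The windows are chr3:49554227-49554526, plus strand for BSN, chr19:17688305-17688604, minus strand for UNC13A, chr12:78864524-78864823, plus strand for SYT1, chr1:51990651-51990950, minus strand for RAB3B and chrX:47619808-47620107, minus strand for SYN1.
BSN: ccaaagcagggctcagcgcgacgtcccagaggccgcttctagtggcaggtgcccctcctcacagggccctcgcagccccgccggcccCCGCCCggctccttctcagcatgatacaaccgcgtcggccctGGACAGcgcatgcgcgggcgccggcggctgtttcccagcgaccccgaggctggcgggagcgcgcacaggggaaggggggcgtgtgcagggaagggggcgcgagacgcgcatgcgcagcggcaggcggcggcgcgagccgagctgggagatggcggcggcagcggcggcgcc
UNC13A: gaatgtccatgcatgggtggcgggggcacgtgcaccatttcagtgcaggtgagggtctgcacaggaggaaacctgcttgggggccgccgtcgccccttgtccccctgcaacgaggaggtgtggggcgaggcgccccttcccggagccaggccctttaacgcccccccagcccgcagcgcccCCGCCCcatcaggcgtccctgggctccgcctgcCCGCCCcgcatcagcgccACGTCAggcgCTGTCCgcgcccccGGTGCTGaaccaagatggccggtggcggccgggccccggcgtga
SYT1: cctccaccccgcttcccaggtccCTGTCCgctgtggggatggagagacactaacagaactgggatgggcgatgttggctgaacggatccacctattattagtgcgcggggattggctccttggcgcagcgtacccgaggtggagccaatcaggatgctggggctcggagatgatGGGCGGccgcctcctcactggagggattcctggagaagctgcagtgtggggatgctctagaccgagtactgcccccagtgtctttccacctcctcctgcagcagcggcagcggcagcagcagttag
RAB3B: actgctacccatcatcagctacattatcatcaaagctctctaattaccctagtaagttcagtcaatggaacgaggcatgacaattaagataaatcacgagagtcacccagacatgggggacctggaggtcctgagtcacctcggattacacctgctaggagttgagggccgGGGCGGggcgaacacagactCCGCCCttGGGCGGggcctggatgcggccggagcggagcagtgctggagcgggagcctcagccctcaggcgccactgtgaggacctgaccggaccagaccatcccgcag
SYN1: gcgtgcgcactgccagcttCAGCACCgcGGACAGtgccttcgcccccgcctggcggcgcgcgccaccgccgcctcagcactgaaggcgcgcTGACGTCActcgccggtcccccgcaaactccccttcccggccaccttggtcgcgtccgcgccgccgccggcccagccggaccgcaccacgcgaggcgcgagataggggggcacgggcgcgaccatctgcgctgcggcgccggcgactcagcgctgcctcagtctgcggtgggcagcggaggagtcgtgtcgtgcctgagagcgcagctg

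All 5 windows lack TATAAA, which 11.5% of the 35116 RefSeq windows hold, and GC made up 58.7% (RAB3B) to 76.0% (BSN) of their bases, against a median of 58.7% over all windows. RefSeq windows were found for 32 of the 37 genes (48 windows, several genes having more than 1 start). The median GC of these 48 windows was 67.7%, against 58.7% over all windows, and its part in the motif counts was not tested. The GC box was in 32 of the 48, where 45% of all windows hold it. CAGCACC was in 9 of 48 (7.75% of all windows), GGACAG in 11 (20.5%), TGACGT in 4 (7.98%) and TATAAA in 1. Both RE1 parts in order on 1 strand, 0 to 20 bases apart, were in 67 of all windows (0.191%) and in those of 2 of these genes, a search made after the UNC13A window had been seen. In SYN1 the parts were 2 bases apart and in UNC13A 8. The RefSeq start sites lie 11 to 86 bases from the deposited gene starts, except that of SYT1, 781 bases downstream. A match is a description of letters and was not tested as a binding site.

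Levels were compared between genes as FPKM, which the authors scaled to gene length. SV2A, a vesicle glycoprotein, stood highest at 28.7 ± 1.36 FPKM in OE-circSHPRH and 27.9 ± 0.886 FPKM in OE-NC (SD, n = 3 each), followed by SYT11 at 26.9 ± 0.410 FPKM in OE-circSHPRH and 24.997 ± 0.471 FPKM in OE-NC (SD, n = 3 each). NLGN2, the neuroligin of inhibitory synapses, and SYT1, the calcium sensor of fast release, came next. NLGN2 was at 20.005 ± 0.477 FPKM in OE-circSHPRH and 19.02 ± 0.806 FPKM in OE-NC (SD, n = 3 each). SYT1 was at 19.1 ± 1.01 FPKM in OE-circSHPRH and 17.2 ± 0.540 FPKM in OE-NC (SD, n = 3 each). The 6 libraries of SV2A and SYT11 overlapped, as did those of NLGN2 and SYT1, while those of SYT11 lay above those of NLGN2. These 4 genes held 51.7% of the CPM of the 32 in OE-circSHPRH and 50.4% in OE-NC. Of the 35 genes, 5 had a mean of at least 10 FPKM over the 6 libraries (the fifth was VAMP2), 23 had 1 to 10 and 7 had less than 1. The median of the 32 was 2.15 FPKM, against 4.53 FPKM over all genes tested. SNAP25, the plasma membrane SNARE, was at 4.19 ± 0.464 FPKM in OE-circSHPRH and 4.47 ± 0.139 FPKM in OE-NC (SD, n = 3 each), and SYP, a marker protein of synaptic vesicles, at 2.61 ± 0.300 FPKM in OE-circSHPRH and 2.87 ± 0.154 FPKM in OE-NC (SD, n = 3 each). Of the 34 pairs of neighbours in the order of levels, 8 were separated in all 6 libraries.

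**Figure D1:**
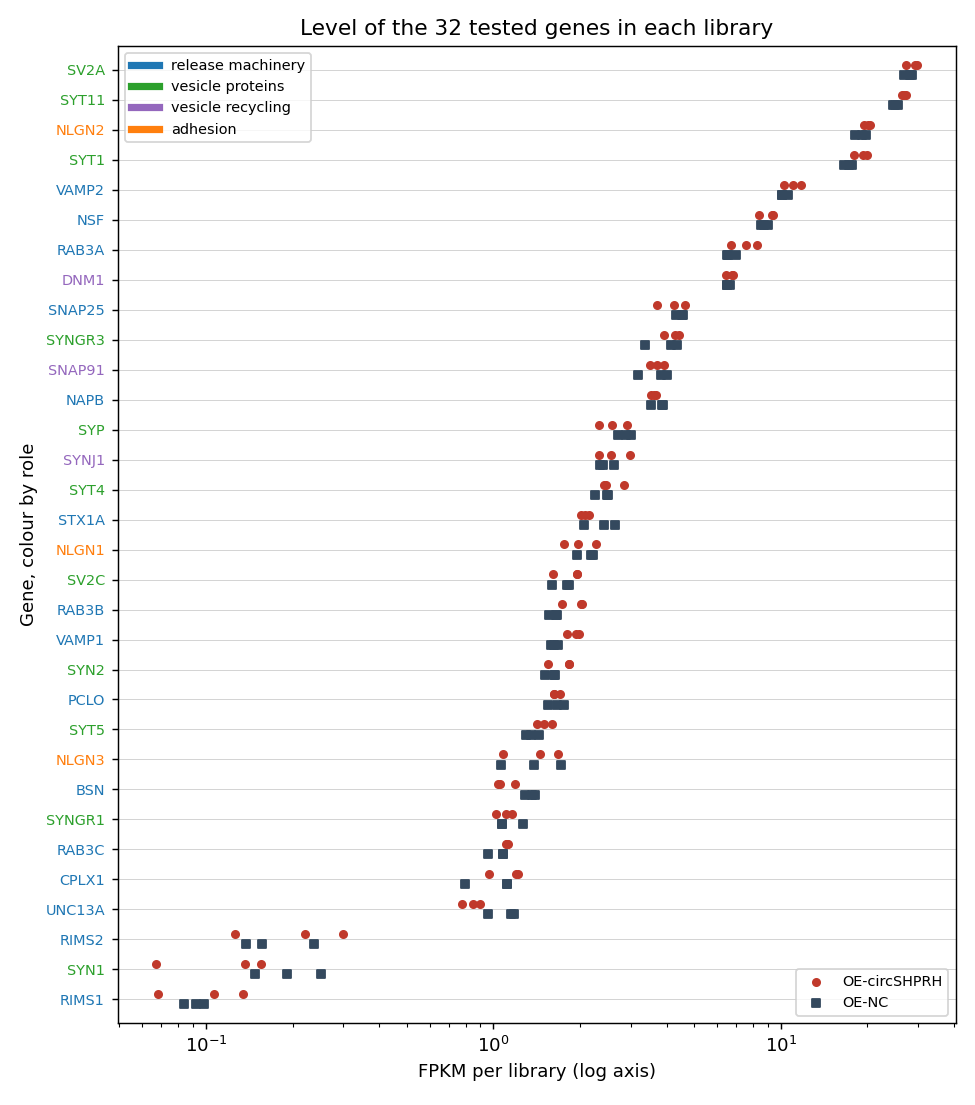
FPKM on a log axis for each of the 32 tested genes, ordered by mean; each point is 1 library, OE-circSHPRH as circles above OE-NC as squares, and the colour of the name gives the role. Levels run from 28.3 FPKM for SV2A to 0.0974 FPKM for RIMS1 as means over 6 libraries, and the libraries of both groups overlap for most genes.

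Levels within families were unequal. VAMP2, the main vesicle SNARE of brain, was 5.76 ± 0.532 times the FPKM of VAMP1 in OE-circSHPRH and 6.31 ± 0.338 times in OE-NC. The ratio of RAB3A to RAB3B, small GTPases of vesicle docking, was 3.91 ± 0.537 in OE-circSHPRH and 4.09 ± 0.161 in OE-NC. SV2A exceeded SV2C 15.8 ± 2.41 times and 16.04 ± 1.41 times, and NLGN2 exceeded NLGN1 10.1 ± 1.20 times and 9.01 ± 0.981 times, in OE-circSHPRH and OE-NC in that order. The libraries of the groups overlapped in each of these 4 ratios. Of 13 ratios computed, the groups did not overlap in 2. PCLO was 1.64, 1.37 and 1.54 times the FPKM of BSN in OE-circSHPRH libraries and 1.14, 1.30 and 1.26 times in OE-NC libraries. The groups of BSN alone did not overlap, while those of PCLO did, so this ratio restates the values of BSN. SYN2 was 13.3, 23.2 and 11.8 times the FPKM of SYN1 in OE-circSHPRH libraries and 10.98, 7.86 and 6.53 times in OE-NC libraries, on 4 to 17 reads of SYN1 per library. Errors of these ratios are SD over n = 3 libraries each.

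Other genes were near the limit of detection. CPLX2, a complexin, had 0, 0 and 0 reads in OE-circSHPRH libraries, against 3, 0 and 0 in OE-NC libraries. SV2B had 0, 0 and 0 reads in OE-circSHPRH libraries, against 1, 1 and 0 in OE-NC libraries. NRXN2, a neurexin, had 8, 4 and 5 reads in OE-circSHPRH libraries, against 1, 4 and 0 in OE-NC libraries. A library of this depth, 15645261 to 17591718 gene counts, makes 1 count worth 0.0568 to 0.0639 CPM, and none of these 3 genes reached the count needed for a test. CPLX1 was the complexin detected at a testable level, with 40, 46 and 49 reads in OE-circSHPRH libraries, against 43, 48 and 34 in OE-NC libraries. SYN1, the founding synapsin that coats vesicles, had 9, 4 and 10 reads in OE-circSHPRH libraries, against 9, 13 and 17 in OE-NC libraries, and passed the filter only narrowly. SYN2 was the more abundant synapsin, with 178, 138 and 176 reads in OE-circSHPRH libraries, against 147, 152 and 165 in OE-NC libraries.

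Among the release machinery, the active zone genes BSN and UNC13A were lower in OE-circSHPRH at an unadjusted p under 0.05, and neither passed the adjusted test. BSN (ENSG00000164061, chromosome 3, 49554489 to 49671545, plus strand, GRCh38), the scaffold bassoon, had 16.99, 19.5 and 17.3 CPM in OE-circSHPRH libraries 1 to 3, against 22.3, 21.1 and 22.9 CPM in OE-NC libraries 1 to 3. All 3 OE-circSHPRH libraries lay below all 3 OE-NC libraries. Its log2 fold change was -0.30 ± 0.089 (SE, as for all fold changes with ±), a fold of 0.810 with a 95% interval of 0.712 to 0.921 (edgeR adjusted p = 0.186, unadjusted p = 0.00284). UNC13A (ENSG00000130477, chromosome 19, 17601328 to 17688365, minus strand, GRCh38), the Munc13 priming factor, had 8.76, 9.61 and 10.1 CPM in OE-circSHPRH libraries 1 to 3, against 12.97, 13.3 and 10.8 CPM in OE-NC libraries 1 to 3. Again the groups did not overlap, and the highest OE-circSHPRH library, at 10.1 CPM, was close to the lowest OE-NC library, at 10.8 CPM. The log2 fold change was -0.38 ± 0.122, a fold of 0.769 with an interval of 0.644 to 0.918 (edgeR adjusted p = 0.252, unadjusted p = 0.00582). PCLO, the scaffold piccolo that works beside bassoon, had 39.3, 37.7 and 37.6 CPM in OE-circSHPRH libraries 1 to 3, against 35.8, 38.6 and 40.7 CPM in OE-NC libraries 1 to 3, and its libraries overlapped with a log2 fold change of -0.0089 ± 0.067. RIMS1 and RIMS2, which tether RAB3 and Munc13, had log2 fold changes of 0.17 ± 0.332 and 0.28 ± 0.287 on 15 to 70 reads per library.

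RAB3B (ENSG00000169213, chromosome 1, 51907956 to 51990764, minus strand, GRCh38), a vesicle GTPase, was higher in OE-circSHPRH, with 22.5, 26.5 and 26.2 CPM in OE-circSHPRH libraries 1 to 3, against 20.3, 21.4 and 21.6 CPM in OE-NC libraries 1 to 3. No library of one group reached into the other. The log2 fold change was 0.24 ± 0.085, a fold of 1.18 with an interval of 1.05 to 1.34 (edgeR adjusted p = 0.289, unadjusted p = 0.00985). RAB3A had 13.9, 15.2 and 12.3 CPM in OE-circSHPRH libraries 1 to 3, against 11.9, 12.8 and 11.99 CPM in OE-NC libraries 1 to 3, and its groups overlapped (0.17, edgeR adjusted p = 0.632). RAB3C had 10.9, 10.97 and 10.8 CPM in OE-circSHPRH libraries 1 to 3, against 9.37, 10.5 and 10.6 CPM in OE-NC libraries 1 to 3. Its groups were apart by a narrow margin, and the log2 fold change was 0.10 ± 0.114.

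Of the 4 SNARE genes of the list, VAMP1 was the one whose groups did not overlap. It had 7.17, 7.03 and 6.54 CPM in OE-circSHPRH libraries 1 to 3, against 6.08, 5.75 and 5.88 CPM in OE-NC libraries 1 to 3, a log2 fold change of 0.23 ± 0.140 (edgeR adjusted p = 0.609). VAMP2 had 33.7, 38.8 and 36.4 CPM in OE-circSHPRH libraries 1 to 3, against 33.4, 35.1 and 33.3 CPM in OE-NC libraries 1 to 3, and 1 OE-circSHPRH library lay within the OE-NC range (0.09, edgeR adjusted p = 0.695). SNAP25 had 15.7, 14.4 and 12.6 CPM in OE-circSHPRH libraries 1 to 3, against 15.4, 15.5 and 14.6 CPM in OE-NC libraries 1 to 3. These overlapped, and the 95% interval of the log2 fold change ran from -0.31 to 0.13. STX1A, the syntaxin partner of SNAP25, had a log2 fold change of -0.20 ± 0.133. NSF, the ATPase that takes spent SNARE complexes apart, had 47.5, 42.6 and 47.2 CPM in OE-circSHPRH libraries 1 to 3, against 43.2, 44.3 and 45.7 CPM in OE-NC libraries 1 to 3 and a log2 fold change of 0.04 ± 0.064. Its adaptor NAPB had -0.05 ± 0.086 and the complexin CPLX1 0.16 ± 0.233. In all, 9 of the 15 release genes tested had a positive log2 fold change and 6 a negative one.

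**Figure D2:**
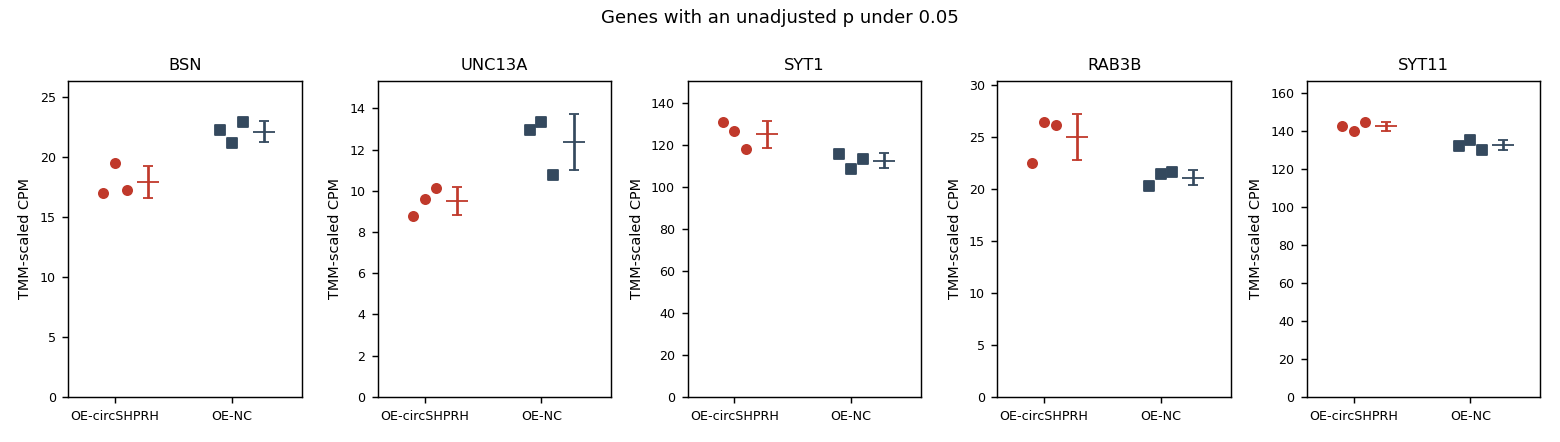
TMM-scaled CPM of the 5 genes with an unadjusted p under 0.05, from the smallest p on the left; points are libraries, OE-circSHPRH left of OE-NC, and the bars beside them are mean ± SD (n = 3 each). BSN and UNC13A are lower, and SYT1, RAB3B and SYT11 higher, in OE-circSHPRH, with no overlap of libraries in any of the 5 panels.

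Among the vesicle proteins the synaptotagmins SYT1 and SYT11 were the 2 with the smallest p. SYT1 (ENSG00000067715, chromosome 12, 78863993 to 79452008, plus strand, GRCh38) had 131, 127 and 118 CPM in OE-circSHPRH libraries 1 to 3, against 116, 109 and 113 CPM in OE-NC libraries 1 to 3. Every OE-circSHPRH library was above every OE-NC library. Its log2 fold change was 0.15 ± 0.050, a fold of 1.11 with an interval of 1.03 to 1.20 (edgeR adjusted p = 0.258, unadjusted p = 0.00622). Without OE-circSHPRH replicate 3, the lowest of its group, SYT1 passed the test (0.19, edgeR adjusted p = 0.0355), where the adjusted p ran from 0.0355 to 0.606 over 14 alternatives. Without that library 142 genes up and 169 down were called over all genes, against 21 and 10 with all libraries. SYT11 (ENSG00000132718, chromosome 1, 155859509 to 155885199, plus strand, GRCh38), a synaptotagmin that does not bind calcium, had 142, 140.0 and 144 CPM in OE-circSHPRH libraries 1 to 3, against 132, 135 and 129.9 CPM in OE-NC libraries 1 to 3. The groups were again apart, with a log2 fold change of 0.10 ± 0.044, or 1.07-fold (interval 1.01 to 1.145, edgeR adjusted p = 0.407, unadjusted p = 0.029). SYT4 and SYT5, the other synaptotagmins of the list, had log2 fold changes of 0.10 ± 0.116 and 0.15 ± 0.131 and overlapping libraries.

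SV2A had 142, 133 and 146 CPM in OE-circSHPRH libraries 1 to 3, against 137, 139 and 131 CPM in OE-NC libraries 1 to 3, with overlap. Its log2 fold change of 0.04 ± 0.048 had an interval of -0.06 to 0.15, the narrowest group of intervals being those of SV2A, SYT1, SYT11, NLGN2 and DNM1. SYP had 12.2, 13.7 and 15.4 CPM in OE-circSHPRH libraries 1 to 3, against 15.9, 15.2 and 14.3 CPM in OE-NC libraries 1 to 3, and the groups overlapped (-0.13, interval -0.36 to 0.09). SYNGR3, a synaptogyrin of the vesicle membrane, had 13.5, 15.2 and 14.8 CPM in OE-circSHPRH libraries 1 to 3, against 15.1, 14.3 and 11.6 CPM in OE-NC libraries 1 to 3, overlapping as well (0.09). SYN1 had 0.529, 0.258 and 0.600 CPM in OE-circSHPRH libraries 1 to 3, against 0.570, 0.741 and 0.971 CPM in OE-NC libraries 1 to 3, and its log2 fold change of -0.70 ± 0.451 had an interval of -1.65 to 0.24. SYN2 had a log2 fold change of 0.13 ± 0.123, SV2C of 0.07 ± 0.094 and SYNGR1 of -0.05 ± 0.134. Of the 11 vesicle protein genes tested, 8 were positive and 3 negative (SYN1, SYP and SYNGR1).

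No tested gene of vesicle recycling or adhesion had an unadjusted p under 0.05, and the groups overlapped for all 6. DNM1, the dynamin that pinches vesicles off the membrane, had 73.8, 70.4 and 73.4 CPM in OE-circSHPRH libraries 1 to 3, against 70.8, 72.4 and 70.9 CPM in OE-NC libraries 1 to 3, overlapping, and its log2 fold change of 0.02 ± 0.052 had an interval of -0.09 to 0.13. SNAP91, the clathrin adaptor AP180, had 26.3, 24.97 and 23.6 CPM in OE-circSHPRH libraries 1 to 3, against 26.96, 21.4 and 25.6 CPM in OE-NC libraries 1 to 3, also overlapping (0.02). SYNJ1, the phosphatase synaptojanin that uncoats vesicles, had 20.9, 24.3 and 19.1 CPM in OE-circSHPRH libraries 1 to 3, against 19.2, 19.7 and 21.4 CPM in OE-NC libraries 1 to 3 (0.09, edgeR adjusted p = 0.810). All 3 log2 fold changes were positive. NLGN2 had 115, 109 and 113 CPM in OE-circSHPRH libraries 1 to 3, against 102, 111 and 107 CPM in OE-NC libraries 1 to 3, and 1 OE-NC library lay within the OE-circSHPRH range (0.07, edgeR adjusted p = 0.647). NLGN1, the neuroligin of excitatory synapses, had 23.3, 20.3 and 18.1 CPM in OE-circSHPRH libraries 1 to 3, against 22.8, 20.1 and 22.3 CPM in OE-NC libraries 1 to 3 with wide overlap (-0.08, edgeR adjusted p = 0.841). NLGN3 had a log2 fold change of 0.03 ± 0.191 on 68 to 115 reads per library.

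**Figure D3:**
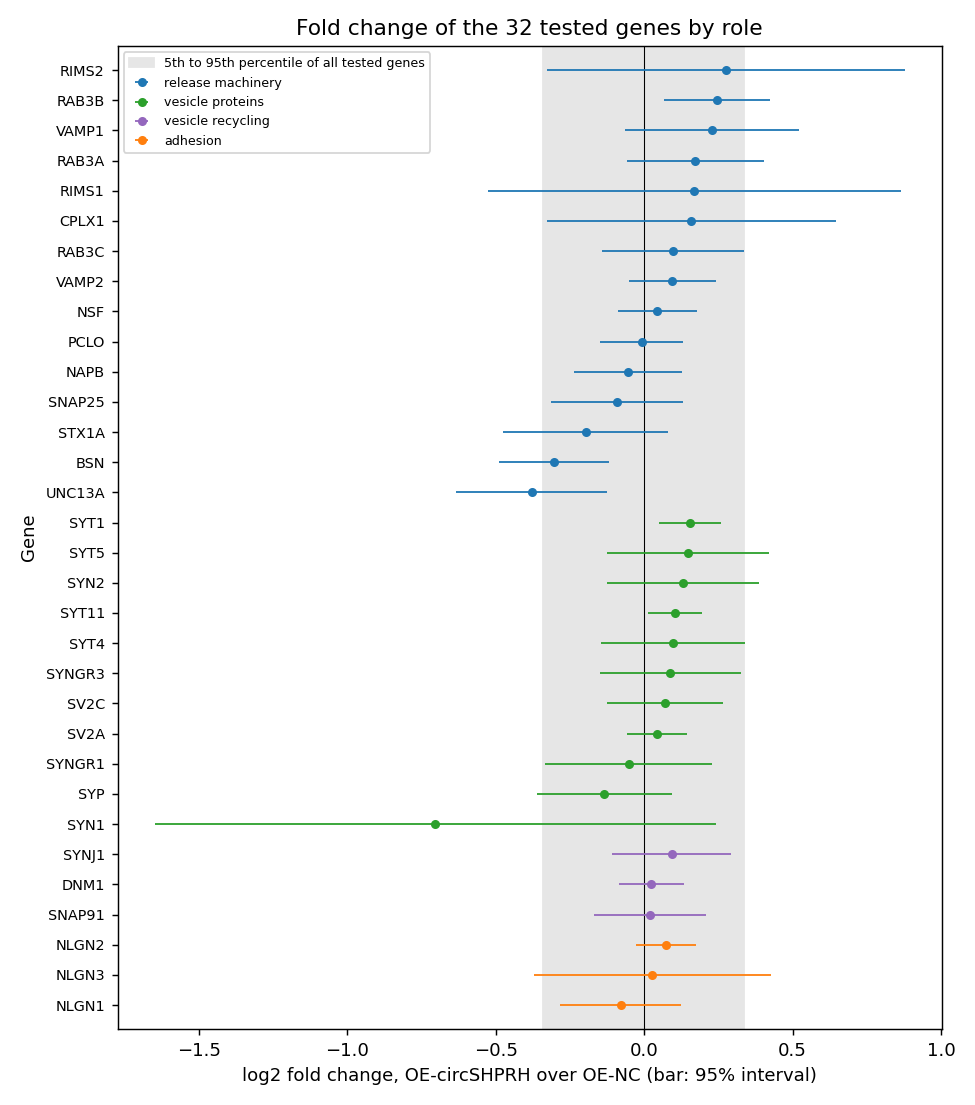
Log2 fold change of OE-circSHPRH over OE-NC for the 32 tested genes, grouped by role; bars are 95% intervals and the grey band spans the 5th to 95th percentile of all 16458 genes tested, -0.34 to 0.34. The interval excludes 0 for BSN, UNC13A, SYT1, RAB3B and SYT11, and the points of all but UNC13A and SYN1 lie inside the band.

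Over the 32 genes 22 log2 fold changes were positive and 10 negative, 68.8% positive against 50.8% over all genes tested (49.2% negative), and the median was 0.07, against 0.0018 over all genes tested. That median was 0.02 without OE-circSHPRH replicate 1, and 0.05 without OE-circSHPRH replicate 2 or OE-NC replicate 3. Whether the roles differed was not tested: the medians were 0.09 for 15 release genes, 0.09 for 11 vesicle protein genes, 0.02 for 3 recycling genes and 0.03 for 3 adhesion genes. Each of these medians moved by over 1.5 times with some library left out. The release median was 0.02 without OE-circSHPRH replicate 1 and 0.04 without OE-circSHPRH replicate 2 or OE-NC replicate 1, and 0.04 with the mitochondrial share as a term. The vesicle protein median was 0.03 without OE-circSHPRH replicate 1 and 0.05 without OE-NC replicate 3. The recycling median was 0.01 without OE-circSHPRH replicate 1, 0.06 without OE-circSHPRH replicate 3 or OE-NC replicate 1, 0.05 without OE-NC replicate 3, and 0.0088 with library totals in place of TMM factors. The adhesion median turned negative without OE-circSHPRH replicate 1 (-0.12) and without OE-NC replicate 3 (-0.06). It was 0.09 without OE-circSHPRH replicate 2 and 0.0056 without OE-circSHPRH replicate 3, and under the alternatives that kept all libraries it ran from 0.01 with library totals to 0.07 with the mitochondrial share as a term.

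Summed over the 11 vesicle protein genes, the level was 505, 488 and 495 CPM in OE-circSHPRH libraries, against 473, 470.4 and 457 CPM in OE-NC libraries, which did not overlap. SYT1 and SYT11 alone summed to 267 ± 5.34 CPM in OE-circSHPRH and 245 ± 2.46 CPM in OE-NC (SD, n = 3 each). Without them the other 9 overlapped at 229 ± 6.01 CPM in OE-circSHPRH and 222 ± 6.98 CPM in OE-NC. SYT1 and SYT11 had the smallest p of the 11 and were each higher without overlap in these same libraries. Their sum thus had to be apart, and taking them out had to narrow the difference. Over all 32 genes the sum was 1006 ± 13.3 CPM in OE-circSHPRH and 968 ± 4.77 CPM in OE-NC, and it did not overlap. Without SYT1 and SYT11 the other 30 genes still did not overlap, at 732 to 748 CPM in OE-circSHPRH and 719 to 729 CPM in OE-NC. The release genes summed to 252 ± 3.41 CPM in OE-circSHPRH and 251 ± 5.15 CPM in OE-NC, with overlap. The sums overlapped for the recycling and the adhesion genes too. Summed markers of sympathetic neuroblasts did not overlap either, at 1706 to 1736 FPKM in OE-circSHPRH and 1639 to 1652 FPKM in OE-NC, nor did fibroblast markers, at 129 to 138 FPKM in OE-circSHPRH and 122 to 127 FPKM in OE-NC. Their part in the vesicle protein sums was not tested. In bulk RNA, fewer cells with a transcript and less of it per cell cannot be told apart.

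**Figure D4:**
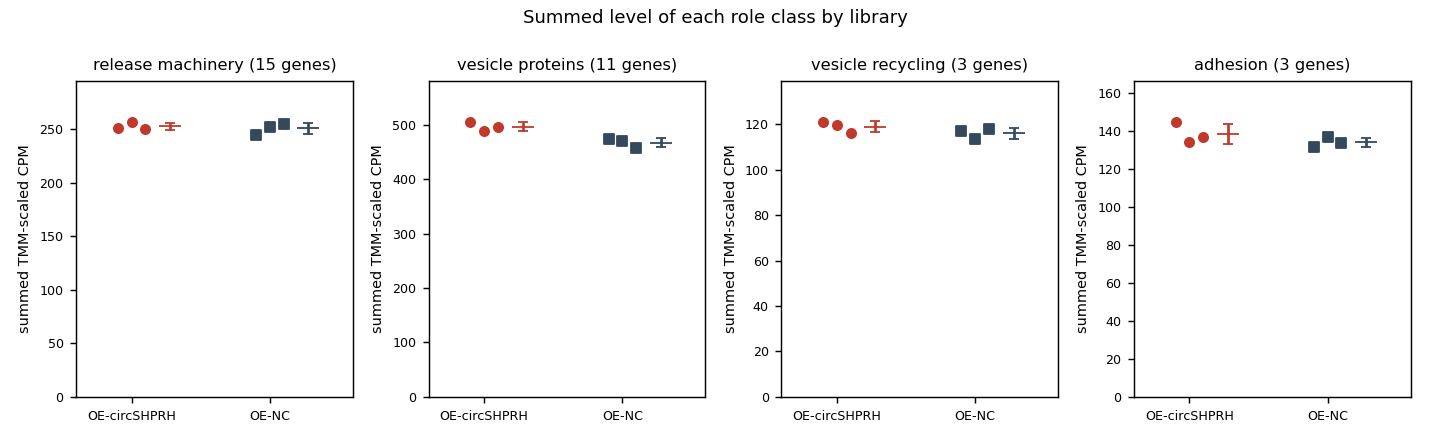
Summed TMM-scaled CPM of the tested genes of each role in each library, OE-circSHPRH left of OE-NC, with mean ± SD beside the points (n = 3 each). The vesicle protein sums are apart, 488 to 505 CPM in OE-circSHPRH and 457 to 473 CPM in OE-NC, and the other 3 sums overlap.

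Of 172 further synaptic genes listed by role, 149 were in the table and 127 were tested. By edgeR over all genes, of which 0.188% were called, 0 of the 127 rose and 0 fell. DESeq2 called 0 of them too, but it gave many of them no adjusted p, PPFIA4, CNTNAP2 and LRRC4 included, so it could not call those. By limma-voom 0 of the 127 were called. At an unadjusted p under 0.05 there were 6 higher and 3 lower in OE-circSHPRH, 7.09% against 10.3% of all genes tested, and their median log2 fold change was 0.02. DESeq2 put 0 of them lower at that level. In CPM the groups did not overlap for 23 of the 127 (18.1%), 15 higher and 8 lower, against 15.6% of all genes tested. Among 38 other release genes, PPFIA4, a liprin of the active zone, was at 14.3 ± 0.798 CPM in OE-circSHPRH and 10.7 ± 1.495 CPM in OE-NC (SD, n = 3 each) with a log2 fold change of 0.41 ± 0.117 (edgeR adjusted p = 0.174), and it passed with the mitochondrial share of each library as a term (0.47, edgeR adjusted p = 0.0320, range over alternatives 0.0320 to 0.573). With that term 212 genes up and 125 down were called over all genes. STX3, a syntaxin of polarised membranes, was at 44.4 ± 2.48 CPM in OE-circSHPRH and 37.8 ± 1.99 CPM in OE-NC (SD, n = 3 each) (0.23, edgeR adjusted p = 0.178). RIMS4 (-0.77 ± 0.386 on 9 to 25 reads per library, edgeR adjusted p = 0.513) and SNAP47 (-0.09) were the lower ones with the smallest p. Their list had 26 positive and 12 negative values.

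The other vesicle proteins (16 tested) had no gene under an unadjusted p of 0.05. The smallest p in each direction belonged to RAB5A (0.10), SYT16 (0.14), SYNGR2 (-0.07) and DNAJC5 (-0.06). Of 28 other recycling genes, AP2B1, a subunit of the clathrin adaptor AP-2, was at 283 ± 13.7 CPM in OE-circSHPRH and 259 ± 2.63 CPM in OE-NC (SD, n = 3 each) (0.13, edgeR adjusted p = 0.270). It passed without OE-circSHPRH replicate 3 (0.16, edgeR adjusted p = 0.0355, range over alternatives 0.0355 to 0.612), where 142 genes up and 169 down were called over all genes. CLTC, the clathrin heavy chain, had a log2 fold change of 0.08, and BIN1 and SH3GL1, which shape curved membranes, had -0.13 and -0.08. Of 30 other adhesion genes 15 were positive and 15 negative. CNTNAP2, a member of the neurexin superfamily, was at 7.32 ± 0.737 CPM in OE-circSHPRH and 5.32 ± 0.757 CPM in OE-NC (SD, n = 3 each) (0.46, edgeR adjusted p = 0.266), and LRRC4, a leucine-rich postsynaptic adhesion protein, at 5.96 ± 0.994 CPM in OE-circSHPRH and 7.82 ± 0.728 CPM in OE-NC (SD, n = 3 each) (-0.40, edgeR adjusted p = 0.353). NCAM2 (0.14) and ADGRL3 (-0.20) followed. Of 15 postsynaptic scaffold genes, DLG1 had a log2 fold change of 0.11 and DLG4, which encodes PSD-95, of -0.16 (edgeR adjusted p = 0.471 and 0.359), with MAGI3 (0.11) next among the higher ones.

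SHPRH, the host gene of the transfected circular RNA, was at 64.3 to 82.0 CPM in OE-circSHPRH and 23.3 to 27.0 CPM in OE-NC, with no overlap, and counts per gene do not separate its linear from its circular transcript. Markers of sympathetic neuroblasts (11 of 11, HAND2, GATA3 and DBH among them) were all present, the lowest being TH at 3.41 FPKM. Of 7 Schwann and glial markers 4 were under 0.1 FPKM, SOX10 among them, and the list summed to 3.003 to 3.72 FPKM in OE-circSHPRH and 3.34 to 4.69 FPKM in OE-NC. The 6 fibroblast markers summed to 129 to 138 FPKM in OE-circSHPRH and 122 to 127 FPKM in OE-NC. Among them COL3A1 and LUM were the highest, and 1 was under 0.1 FPKM, COL1A2 at 0.0026 FPKM. CD14 was at 0.488 FPKM in OE-circSHPRH and 0.403 FPKM in OE-NC, and the other 4 leukocyte markers were not analysed here. No marker passed the test. Mitochondrially encoded genes took 12.1%, 11.4% and 10.2% of counts in OE-circSHPRH libraries 1 to 3, against 10.3%, 10.2% and 11.4% in OE-NC libraries 1 to 3. The difference of mean log2 CPM, OE-circSHPRH minus OE-NC, was taken between libraries of low share (under 11%) and between those of high share. In that order it was -0.33 and -0.33 for BSN, -0.38 and -0.23 for UNC13A and 0.07 and 0.18 for SYT1. For RAB3B it was 0.33 and 0.17, and for SYT11 0.11 and 0.12. Each comparison had a single library on one side. The groups of these genes did not overlap, so no such split could turn a sign. It therefore cannot decide what part the mitochondrial share had.

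Some counts may include reads of other genes, and the sources used here give neither the counting rule nor its use of strand. NSF shared 26.4% of its 50-base words with its pseudogene copy NSFP1, which had 1, 41 and 3 reads in OE-circSHPRH libraries and 32, 1 and 2 in OE-NC libraries, so its value is uncertain. BUD23 overlaps 17.9% of the exon bases of STX1A on the opposite strand, TAPBPL 9.47% of those of VAMP1 and MPV17L2 9.08% of those of RAB3A. On the same strand AC129492.3 covers 13.2% of the exon bases of VAMP2 and AL009172.2 covers 7.77% of those of SYN1. For BSN, UNC13A, SYT1 and SYT11 less than 1% of bases or words were shared, and for RAB3B 2.89% of words.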

How the data were processed

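RNA sequencing of 6 SH-SY5Y libraries was analysed from 1 gene table. Per the labels' protocols, RNA was extracted with TRIzol and a SMARTER mRNA-Seq kit gave the libraries. The deposited raw counts per gene and library were used for all tests. The deposited FPKM values equal count over gene length times 1 constant per library and were used for levels. The deposited normalized signal (counts over 1 size factor per library) and the authors' log2 fold change and p-value columns were not used. The submitters' processing notes name GRCh37, whereas the deposited coordinates matched GENCODE release 29 on GRCh38 for 28752 genes; the sources used here name neither aligner nor counter.

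Totals per library were 15645261 to 17591718 counts. Genes were filtered with filterByExpr (minimum count 10, minimum total 15), which kept 16458 and left out 12294. TMM factors set the scaling, and edgeR 4.0.16 gave the test (quasi-likelihood F-test, two-sided, group as the only term, Benjamini-Hochberg over all genes at 0.05). The biological coefficient of variation was 5.36%. A standard error is the log2 fold change over the square root of F, and intervals (95%) use the fit's degrees of freedom. CPM values are TMM-scaled. The code was tested on simulated counts. Alternatives were RLE factors, library totals, DESeq2 1.42.0, limma-voom (limma 3.58.1), other filters, a replicate block, a mitochondrial term and each library left out. Members, lists and roles were chosen with earlier results of these data known. Genes named with library values are, per role, those with the smallest p and the highest FPKM (4 each for release and vesicle proteins, 2 each for recycling and adhesion). For further lists they are the 2 with the smallest p per direction, of which 1 is not reported here. PCLO, RAB3C and the genes near the detection limit were added after values were seen. Exon overlap and shared words of 50 bases came from GENCODE release 29, on both strands. Within groups, chi-square per degree of freedom between libraries was 2.20 to 7.90, so no library was counted as a copy of another.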

Additional observations from a re-analysis of the deposited data

How the results depend on the processing

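Of 447 log2 fold changes of the 32 genes under 14 alternatives (SYN1 was filtered out under 1), 431 kept their sign, and 22 genes kept it throughout. One passed the test, SYT1 without OE-circSHPRH replicate 3, a setting that called 142 genes up and 169 down over all genes. The unadjusted p stayed under 0.05 in all 14 for BSN, UNC13A and SYT1, in 13 for RAB3B and in 9 for SYT11. The edgeR or limma adjusted p of BSN ran from 0.0646 to 0.543, and DESeq2 gave it no adjusted p. With a library left out, genes of the group called ran from 0 to 1 up and stayed at 0 down, and at an unadjusted p under 0.05 from 2 to 4 up.

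Over all genes, 21 up and 10 down were called, against 46 and 27 with DESeq2, 116 and 78 with no filter on low counts, 212 and 125 with the mitochondrial share as a term, 4 and 2 with the replicate block, and 4 to 142 up and 1 to 169 down with a library left out. Those at an unadjusted p under 0.05 and lower were 826, against 524 with DESeq2 and 591 to 1278 with a library left out; up they were 673 to 1194. For the other synaptic genes 1 was called up with the mitochondrial term and 0 to 1 with a library left out; at an unadjusted p under 0.05 there were 3 lower, against 0 with DESeq2, 6 with no filter and 0 to 5 with a library left out, and 5 to 14 higher. The median log2 fold change with a library left out ran from 0.02 to 0.09 for the 32 genes, 0.02 to 0.12 for release, 0.03 to 0.11 for vesicle protein, 0.01 to 0.06 for recycling and -0.12 to 0.09 for adhesion genes, and the release median was 0.04 with the mitochondrial term. The cause of these moves was not tested.

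Libraries of the same number did not deviate together (r = -0.05, -0.03 and -0.13 across genes for numbers 1 to 3), so the numbers were not taken as pairs. Under the replicate block 0 of the 32 genes passed, and 2 were higher and 2 lower at an unadjusted p under 0.05. At this depth, changes of RIMS1, RIMS2, SYN1 and CPLX1 under 1.5-fold could not be resolved, and for NRXN2, CPLX2 and SV2B none were tested.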
